A study of Mus musculus with 24 samples.

Results

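Mature B-cell surface genes are 8 genes named by symbol: Ms4a1, Cd22, Cd72, Tnfrsf13c, Cr2, Fcer2a, Cd37 and Cd83. They were read from microarrays of mouse leukaemia of the B-cell lineage, in which 17097 gene symbols had a probe set. All 8 were measured, by 12 probe sets, and the probe set with the largest spread stood for each gene. The rule names genes by symbol and uses no measured value, so differences between groups were tested, but earlier results of these data were known when the genes were chosen.

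These proteins sit on the surface of B cells once their antigen receptor is assembled, and most are low or absent on pro-B and pre-B cells. Ms4a1 encodes CD20, a membrane protein tied to calcium entry and the target of therapeutic antibodies. CD22 and CD72 are inhibitory receptors that recruit phosphatases to the B-cell receptor, whereas Cr2 encodes complement receptors that lower its threshold. Tnfrsf13c encodes the BAFF receptor, which keeps mature B cells alive. Fcer2a encodes CD23, the low-affinity IgE receptor of follicular B cells, Cd37 encodes a tetraspanin, and Cd83 an activation marker that stabilises MHC class II on the surface.

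The study asked how C/EBPβ, a transcription factor encoded by Cebpb, acts together with loss of Blnk, the adaptor that links pre-B and B-cell receptors to downstream signalling. LAP is its activating form. BKO408 is a preB-ALL line (acute lymphoblastic leukaemia of precursor B cells) that arose in Blnk knockout mice, and it was cultured with 5 ng/ml IL-7, the cytokine on which precursor B cells depend. BKO408 cells carrying a LAP retrovirus (n = 4 arrays) were set against BKO408 cells without it (n = 4), so Blnk is missing from both groups. The 16 primary tumours comprised 4 groups. Mice with a LAP transgene and intact Blnk gave B-ALL (LAP B-ALL, n = 4). Mice with the transgene on a Blnk knockout background gave preB-ALL (LAP/Blnk, n = 3), the transgene with intact Blnk also gave preB-ALL (LAP preB-ALL, n = 4), and Blnk knockout mice without the transgene gave preB-ALL (Blnk, n = 5). All cell-line values come from 1 line. The sources used here name no promoter of the transgene, no tissue, no share of tumour cells and no control virus for the cells. The labels do not say whether arrays stand for separate cultures or animals. The p-values set group differences against the spread among these samples, and they may not extend beyond them.

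Every value below is a log2 ratio, not a level. Ratios are relative to a probe set's median, taken over the 8 arrays of cells or, separately, over the 16 tumours, so cells cannot be ranked against tumours, nor one gene's level against another's. In tumours, fewer cells of a type and less RNA per cell cannot be told apart, and a tumour can hold normal B cells of the host.

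The labels were checked with Vpreb1, a surrogate light chain gene of precursor B cells. Vpreb1 lay between -0.45 and 0.35 in 11 tumours. It was far lower, between -8.97 and -8.49, in LAP B-ALL 1, 2 and 3 and in the tumours labelled LAP preB-ALL 2 and 4. The tumour labelled LAP B-ALL 4 was at 0.14, among the preB-ALL. Its Cebpb ratio of -3.11, with the chosen probe set, lay within the range of Blnk tumours, -4.50 to -1.94. With the other Cebpb probe sets LAP/Blnk and Blnk tumours overlapped. There LAP B-ALL 4 was at -0.36 and -0.37, against -1.38 to 1.38 and -0.32 to 0.15 in Blnk tumours. The Blnk probe set did not mark the knockout, with ranges of 0.42 to 1.23 (LAP/Blnk) and -0.68 to 0.94 (Blnk tumours), against -0.53 to 1.45 where Blnk is intact, and whether it lies in the deleted part is not known here. In the cells, Cebpb ran from -0.01 to 0.24 with LAP and from -0.14 to 0.01 without it, and the ranges overlapped. All samples keep the group of their label, and results that rest on the 3 tumours are given with and without them.

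Promoter sequences are shown for the 4 genes whose ratio changed when LAP was added to BKO408 cells. Each is the RefSeq window of GRCm38.p6 from 250 bases before to 50 bases after the annotated start, read 5′ to 3′ on the strand of the gene. The windows of Cd22 and Cd72 lie wholly within the regions of these genes (chr7:30865404-30880342 and chr4:43447724-43455102). They do not reach the 5′ end of the region, so their positions are not upstream of the whole gene. Capitals mark matches to the E-box CAGGTG or to the PU.1 motif GAGGAA, on either strand.
Cd22, chr7:30878979-30879278, strand -: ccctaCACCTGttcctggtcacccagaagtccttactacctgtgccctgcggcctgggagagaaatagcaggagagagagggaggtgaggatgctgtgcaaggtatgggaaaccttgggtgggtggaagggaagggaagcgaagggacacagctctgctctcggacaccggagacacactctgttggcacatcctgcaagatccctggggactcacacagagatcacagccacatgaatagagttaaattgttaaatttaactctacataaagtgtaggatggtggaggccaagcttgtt
Cd72, chr4:43454577-43454876, strand -: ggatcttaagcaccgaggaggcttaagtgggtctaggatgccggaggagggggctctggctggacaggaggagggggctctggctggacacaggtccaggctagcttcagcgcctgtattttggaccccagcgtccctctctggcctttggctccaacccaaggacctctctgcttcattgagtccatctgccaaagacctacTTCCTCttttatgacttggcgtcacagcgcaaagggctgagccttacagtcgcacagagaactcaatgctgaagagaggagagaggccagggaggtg
Tnfrsf13c, chr15:82224331-82224630, strand -: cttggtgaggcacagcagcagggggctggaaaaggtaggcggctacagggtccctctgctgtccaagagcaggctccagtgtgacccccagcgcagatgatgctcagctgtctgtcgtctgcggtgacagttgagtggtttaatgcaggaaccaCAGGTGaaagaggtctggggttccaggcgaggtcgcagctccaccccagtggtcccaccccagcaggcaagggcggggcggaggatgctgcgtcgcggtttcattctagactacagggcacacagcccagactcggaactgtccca
Cr2, chr1:195176670-195176969, strand -: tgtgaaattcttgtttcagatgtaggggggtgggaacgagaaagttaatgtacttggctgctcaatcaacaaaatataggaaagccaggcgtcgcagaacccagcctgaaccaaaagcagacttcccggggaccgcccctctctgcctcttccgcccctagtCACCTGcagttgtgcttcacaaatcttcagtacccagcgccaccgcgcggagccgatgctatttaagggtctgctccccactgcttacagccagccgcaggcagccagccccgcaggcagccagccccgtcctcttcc
Cd22, Tnfrsf13c and Cr2 each held 1 E-box, whose first base lay at -245, -96 and -88 from the start, and Cd72 held 1 PU.1 motif at -47. An E-box was present in 20.21% and the PU.1 motif in 28.28% of 32851 mouse promoters of this length. The C/EBP motif TTNNGCAA, found in 10.8% of promoters, had no match in these 4 windows or in those of Cd37 and Fcer2a, and neither had the octamer ATGCAAAT (1.74%). A match is a description of letters in a short window, and its absence says nothing about the factor. The Cd37 window (chr7:45238790-45239089, within the gene's region at chr7:45233632-45239340) held 1 E-box and 2 PU.1 motifs. Of the 3 Fcer2a windows, 1 held 2 E-boxes (chr8:3690812-3691111, within the gene's region at chr8:3680280-3694174).

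Both inhibitory receptor genes and the BAFF receptor gene were lower in BKO408 cells with LAP, and the complement receptor gene was higher. Cd22 (chr7:30865404-30880342) was at -0.35, -0.39, -0.20 and -0.29 in LAP cells, against 0.20, 0.32, 0.40 and 0.23 in control cells. Its mean fell by 0.59 (SE 0.06), which is 1.504-fold lower (limma, adjusted p = 6.9e-05). Cd72 (chr4:43447724-43455102) was at -0.27, -0.25, -0.25 and -0.22 in LAP cells, against 0.27, 0.22, 0.28 and 0.22 in control cells. The 4 arrays of each group lay almost on top of each other, and the mean fell by 0.50 (SE 0.03), 1.41-fold lower (limma, adjusted p = 1.82e-06). Tnfrsf13c (chr15:82221742-82224380) was at -0.33, -0.35, -0.39 and -0.28 in LAP cells, against 0.28, 0.32, 0.33 and 0.41 in control cells. With the chosen probe sets this was the largest change among the 8 genes, a fall by 0.67 (SE 0.04), 1.59-fold lower (limma, adjusted p = 1.85e-06). Cr2 (chr1:195136811-195176880) was at 0.19, 0.06, 0.16 and 0.18 in LAP cells, against -0.09, -0.18, -0.14 and -0.06 in control cells. It rose by 0.27 (SE 0.04), 1.202-fold higher (limma, adjusted p = 9.73e-04), with no overlap of the groups.

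**Figure D1:**
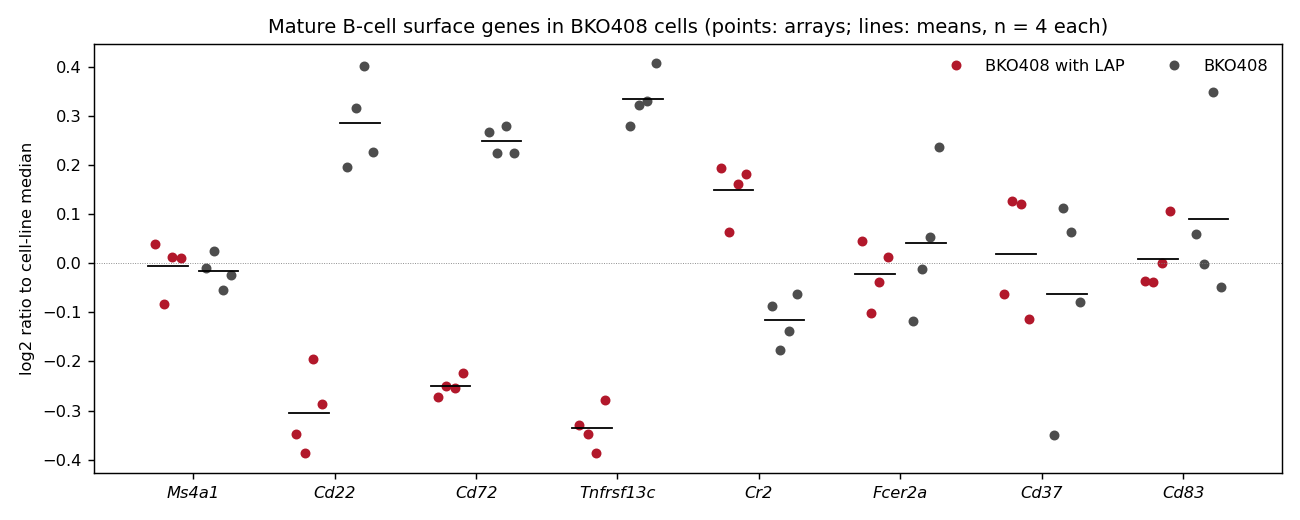
Log2 ratio to the cell-line median (vertical axis) of the 8 genes (horizontal axis) in BKO408 cells with LAP (red, left of each pair) and BKO408 cells (grey), with points for arrays and lines for group means (n = 4 each). The groups do not overlap for Cd22, Cd72, Tnfrsf13c and Cr2, while those of the other genes do.

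The other 4 genes did not pass. Ms4a1 ran from -0.08 to 0.04 in LAP cells, against -0.06 to 0.02 in control cells, and its change was 0.01 (limma, adjusted p = 0.866). Fcer2a differed by -0.06 (SE 0.07), Cd37 by 0.08 (SE 0.10) and Cd83 by -0.08 (SE 0.08), with overlapping groups and adjusted p of 0.593, 0.632 and 0.535 in limma. The 4 calls (1 higher and 3 lower of 8 genes) stand in a comparison where 22.3% of all symbols passed, 10.5% higher and 11.8% lower, and where the groups of 26.8% did not overlap. The median change was -0.07 over the 8 genes and -0.01 over all symbols. All 4 calls were lost when the cells were fitted together with the 16 more variable tumours, where 21 symbols passed in all.

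A few genes had a second probe set. Both probe sets of Cd22 followed each other across the cells (r = 0.954, n = 8), and the second one also lay lower in every LAP array, between -0.39 and -0.27, against 0.27 to 0.51 in control cells. Its change of -0.70 (limma, adjusted p = 2.87e-05) was larger than that of Tnfrsf13c. Both probe sets of Ms4a1 (r = -0.388) and of Cd37 (r = -0.711) ran apart in the cells, so a cell-line value of these genes depends on the probe set. The second Cd37 probe set differed by -0.24, against 0.08 for the first (limma, adjusted p = 0.0887 and 0.632). In the tumours the pairs followed each other closely for Ms4a1, Cd22 and Fcer2a (r = 0.996, 0.986 and 0.970, n = 16) and less so for Cd37 (r = 0.702), where a group difference depended on the probe set, as given with its tumour values.

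Genes that work with these proteins moved in both directions. The counts below stand beside 10.5% of all symbols called higher and 11.8% called lower, and no list was tested against these shares. Of 33 other B-cell surface genes 3 were higher and 12 lower in LAP cells, among them Cd69, an early activation marker (0.57), Cd55, a complement regulator (-0.45), and Slamf6, a homotypic adhesion receptor (-0.43). Of 16 genes of B-cell receptor signalling 1 was higher and 5 lower. Falls were seen in Prkcb (-0.46), the kinase that couples the receptor to NF-kB, in the phosphatase gene Inpp5d (-0.27) and in the adaptor Dok3 (-0.26). The 1 higher gene, named after its value was seen, was the phosphatase gene Ptpn6 at 0.17. Of 16 genes around the BAFF receptor and NF-kB 1 was higher and 3 lower, with Tnfaip3 at -0.34, Traf2 at 0.28 and Nfkbia at -0.26. MHC class II genes had 1 higher and 3 lower of 12, led by H2-Oa, a modulator of peptide loading (-0.35), Ctss, the protease that trims the invariant chain (-0.20), and H2-DMa (0.17). Of 22 B-lineage regulators 2 were higher and 10 lower. The largest were Irf4 (-1.41) and Id3 (-0.52), both lower, and Klf2 (1.19), which was higher. Of 12 pro-B and pre-B markers 6 were lower and 0 higher, led by Dntt (-1.91), Rag1 (-1.32) and Rag2 (-1.19). Markers of monocytes and macrophages had 3 higher and 0 lower of 11, led by Ccr2 (2.25), Lyz2 (1.53) and Fcgr1 (0.41). Their mean ratio lay between 0.16 and 0.22 in LAP cells, against -0.25 to -0.17 in control cells. Their median ratio differed less, with 0.01 to 0.06 in LAP cells, against -0.05 to -0.01 in control cells. Among markers of other cells, plasma cells had 2 higher and 0 lower of 6 (Creld2 at 0.20 and Xbp1 at 0.13), and follicular dendritic cells had 1 higher and 1 lower of 6 (Tmem119 at 0.24 and Mfge8 at -0.29). T cells had 1 higher and 1 lower of 9 (Cd28 at 0.73 and Cd8b1 at -0.12), NK cells had 0 higher and 2 lower of 8 (Klrb1c at -0.40 and Klrd1 at -0.31), and granulocytes had 2 higher and 1 lower of 12 (Mmp8 at 0.45, Prtn3 at 0.44 and Elane at -0.12). Dendritic cells (Cst3 at -0.14, of 7), erythroid cells (Car2 at -0.23, of 7) and stroma and endothelium (Pecam1 at -0.55, of 10) had 1 lower each. All changes in this paragraph are differences on the log2 scale that passed limma's test over all symbols.

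Ms4a1 (chr19:11249679-11266149) was the most variable of the 8 genes in the tumours. It was at 3.68, 2.96, 3.06 and 1.85 in LAP B-ALL, against -4.69, -4.59 and -4.49 in LAP/Blnk tumours. LAP preB-ALL had -3.87, 3.87, -4.67 and 1.94, and Blnk tumours had -4.69, 1.21, -1.21, -3.05 and 1.28. LAP B-ALL were high throughout and LAP/Blnk tumours low throughout, while both other groups spanned most of the range. LAP/Blnk tumours had hardly any spread with this probe set, but the second one gave -3.99, -4.83 and -4.34. Blnk tumour 1 (-4.69) and LAP preB-ALL 3 (-4.67) were as low, and without levels it cannot be said whether the gene was detected there. The difference between LAP B-ALL and LAP/Blnk tumours was 7.47 (SE 1.88), 178-fold higher in LAP B-ALL (limma, adjusted p = 0.0446), the only one of 48 tests of these genes between tumour groups that passed. It no longer passed without any 1 of LAP B-ALL 1, 2 and 3 or of the 3 LAP/Blnk tumours (adjusted p = 0.0999 to 0.128), with the mean of both probe sets (0.0519) or after quantile normalisation (0.0747), whereas over all 17 alternatives the change stayed between 6.41 and 7.82 and the adjusted p between 0.00148 and 0.128.

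Cd83 (chr13:43785112-43803133) split the tumours in another way. It was at 4.91, 3.89, 4.13 and 0.32 in LAP B-ALL, against 0.01, -0.53 and -0.19 in LAP/Blnk tumours. LAP preB-ALL had -1.14, 4.68, -0.18 and 4.05, and Blnk tumours had -0.76, -0.21, -0.78, -0.01 and 1.95. The 5 highest tumours were LAP B-ALL 1, 2 and 3 and the tumours labelled LAP preB-ALL 2 and 4, the same 5 in which Vpreb1 was low. Cd83 lay between 3.89 and 4.91 in these and between -1.14 and 1.95 in the other 11. Ms4a1 lay between 1.94 and 3.87 in these, against -4.69 to 1.85 in the other 11, so the 2 ranges of Ms4a1 lay next to each other without a gap like that of Cd83. LAP B-ALL differed from LAP/Blnk tumours in Cd83 by 3.55 (SE 1.36) and from Blnk tumours by 3.27 (SE 1.198), and neither passed (limma, adjusted p = 0.147 and 0.140).

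**Figure D2:**
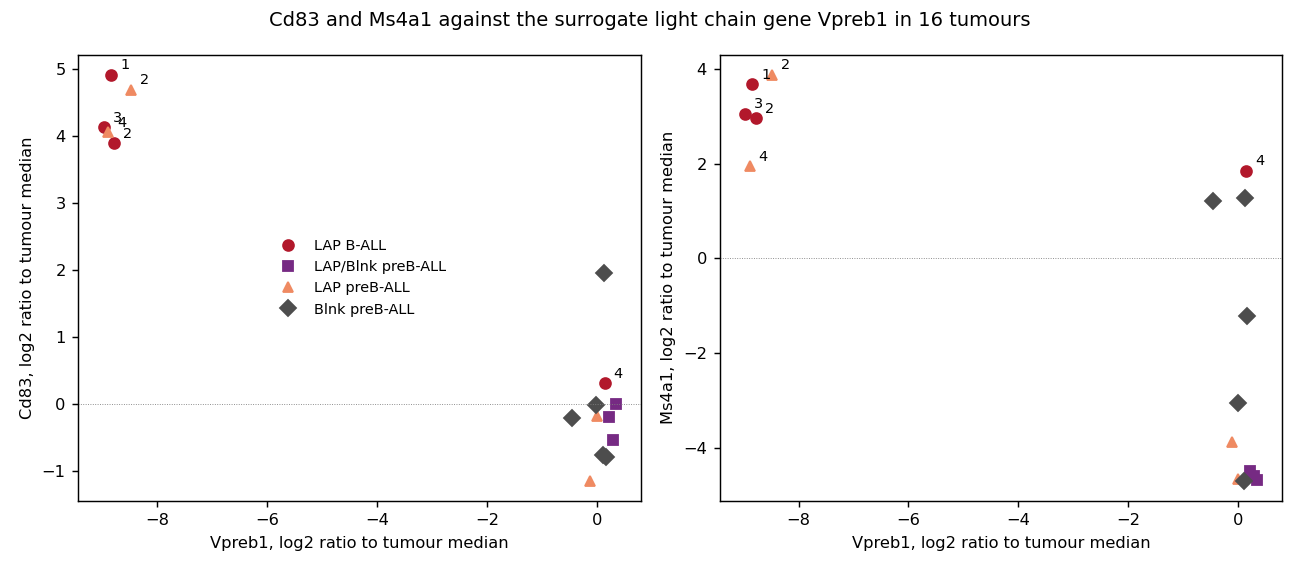
Log2 ratio to the tumour median of Cd83 (left) and Ms4a1 (right) against that of Vpreb1 in 16 tumours, with a symbol for each tumour group and tumour numbers for LAP B-ALL and the tumours labelled LAP preB-ALL 2 and 4. The 5 tumours with Vpreb1 between -8.97 and -8.49 have Cd83 between 3.89 and 4.91, and LAP B-ALL 4 lies at 0.14 for Vpreb1 and 0.32 for Cd83.

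The inhibitory receptors spread most within LAP preB-ALL. Cd72 was at 1.54, 1.75, 1.02 and 0.36 in LAP B-ALL, against -0.02, 0.02 and -0.18 in LAP/Blnk tumours. LAP preB-ALL had -2.44, -0.48, -3.54 and 1.97, and Blnk tumours had 0.99, 0.34, -0.39, -0.42 and -0.89. LAP B-ALL lay above every LAP/Blnk tumour, by 1.23 on average, which did not pass (limma, adjusted p = 0.492). Cd22 was at 1.37, 1.31, 0.04 and -0.04 in LAP B-ALL, against -0.50, -1.72 and -0.65 in LAP/Blnk tumours. LAP preB-ALL had -1.36, 2.02, -3.34 and -0.17, and Blnk tumours had 0.10, 0.37, 0.40, 1.03 and -0.15. The LAP/Blnk tumours lay below every LAP B-ALL and below every Blnk tumour, with mean differences of 1.63 for LAP B-ALL over LAP/Blnk and of -1.31 for LAP/Blnk over Blnk tumours that did not pass (limma, adjusted p = 0.305 and 0.988). For both receptors the lowest value of the 16 tumours was in LAP preB-ALL 3.

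Tnfrsf13c, the BAFF receptor gene, was at 1.68, 1.00, -0.35 and 0.05 in LAP B-ALL, against 0.24, -0.57 and -1.64 in LAP/Blnk tumours. LAP preB-ALL had -0.88, 2.54, -1.93 and 0.92, and Blnk tumours had -0.05, 1.24, -1.69, -0.37 and 0.14. All 4 groups overlapped. Of the 3 remaining genes, Cd37 was at 0.37, -0.17 and 0.41 in LAP/Blnk tumours, all above LAP preB-ALL at -0.74, -0.39, -1.06 and -0.95. LAP/Blnk lay higher by 0.99 (SE 0.39), which did not pass (limma, adjusted p = 0.207), and LAP B-ALL (-0.10, 0.22, -1.14 and 0.44) and Blnk tumours (-1.27, 0.10, 0.13, 0.12 and 0.23) overlapped with both. The second Cd37 probe set ran from -0.04 to 0.41 in LAP/Blnk tumours, against -0.15 to 0.04 in LAP preB-ALL, and there the groups overlapped. Cr2 ran from -0.51 in LAP B-ALL 3 to 1.32 in LAP B-ALL 4. Fcer2a (chr8:3680280-3694174) was flat, between -0.28 and 0.62, in all tumours but LAP preB-ALL 2, where it was at 3.50 with one probe set and at 2.16 with the other. Fcer2a RNA thus stood out in a single tumour of the 16, which was also the highest in Ms4a1, Cd22 and Tnfrsf13c. That tumour also had the highest mean ratio of 6 plasma-cell genes, 2.25 (median 1.40), followed by Blnk tumour 5 at 0.66.

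**Figure D3:**
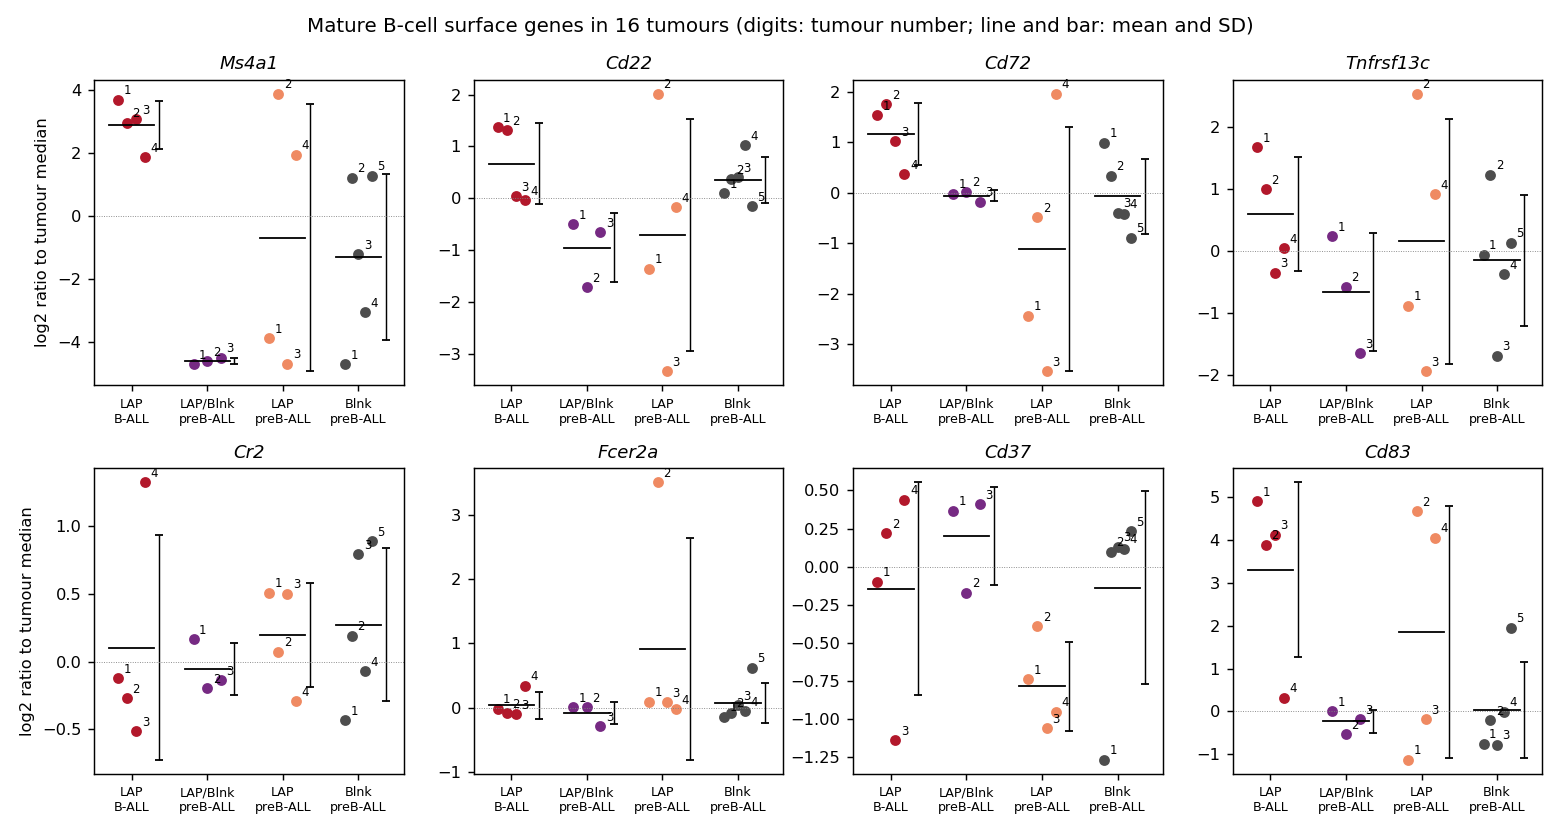
Log2 ratio to the tumour median (vertical axis) of each of the 8 genes in LAP B-ALL, LAP/Blnk, LAP preB-ALL and Blnk tumours (horizontal axis). Points are tumours with their number, lines are group means and bars 1 SD. Ms4a1 of the LAP/Blnk tumours lies between -4.69 and -4.49, and LAP preB-ALL 2 and 4 lie far above LAP preB-ALL 1 and 3 in Ms4a1 and Cd83.

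By group mean, the order for Ms4a1 was LAP B-ALL at 2.89 ± 0.76, LAP preB-ALL at -0.68 ± 4.23, Blnk tumours at -1.29 ± 2.62 and LAP/Blnk tumours at -4.59 ± 0.10 (SD, n = 4, 4, 5 and 3). For Cd83 it was LAP B-ALL at 3.31 ± 2.04, LAP preB-ALL at 1.85 ± 2.94, Blnk tumours at 0.04 ± 1.12 and LAP/Blnk tumours at -0.24 ± 0.27 (SD, same n). No neighbours in either order passed the test, and for Cd83 neither did the ends.

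The 6 comparisons between tumour groups share samples and are given side by side. LAP B-ALL against LAP preB-ALL had 0 of 8 genes past the threshold, where 0% of all symbols passed (limma, 0 of 17097, with 1886 at an unadjusted p under 0.05). Its largest differences were 3.57 (SE 1.74) for Ms4a1 and 2.29 (SE 0.87) for Cd72, with adjusted p of 0.470 and 0.393 in limma. The groups of none of the 8 were apart, against 5.21% of all symbols. LAP B-ALL against Blnk tumours had 0 of 8, where 1.45% passed. Ms4a1 differed by 4.18 (SE 1.65, adjusted p = 0.165 in limma) and was the 1 gene whose groups were apart, against 8.52% of symbols. LAP B-ALL against LAP/Blnk tumours had the 1 call of Ms4a1, where 3.52% passed, and 4 genes apart (Ms4a1, Cd22, Cd72 and Cd83), all higher in LAP B-ALL, against 22.2% of symbols.

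The preB-ALL groups were set against each other in the same way. LAP/Blnk against LAP preB-ALL had 0 of 8 genes, where 2.37% passed, with Ms4a1 at -3.91 (SE 1.88, adjusted p = 0.293 in limma) and Cd37 as the 1 gene apart, against 17.3% of symbols. LAP/Blnk against Blnk tumours had 0 of 8, where 0.0175% passed, with Ms4a1 at -3.30 (SE 1.80, adjusted p = 0.940 in limma) and Cd22 as the 1 gene apart, against 5.36%. LAP preB-ALL against Blnk tumours had 0 of 8, where 0.0819% passed, and its largest difference was 1.82 (SE 1.198) for Cd83 (adjusted p = 0.523 in limma). The groups of none of the 8 were apart there, against 4.59%. The median change of the 8 genes was 1.01 in LAP B-ALL against LAP preB-ALL, 0.53 in LAP B-ALL against Blnk and 1.24 in LAP B-ALL against LAP/Blnk tumours. It was -0.54 in LAP/Blnk against LAP preB-ALL, -0.30 in LAP/Blnk against Blnk and 0.12 in LAP preB-ALL against Blnk tumours. The medians over all symbols lay between -0.03 and 0.00.

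The 3 tumours whose Vpreb1 departed from their label decided several of these results. They were left out after their values were seen, and they also had Ms4a1 and Cd83 ratios far from others of their label, so the values without them describe the remaining tumours and test nothing new. Without LAP preB-ALL 2 and 4, LAP B-ALL lay above LAP preB-ALL by 7.16 in Ms4a1, 3.02 in Cd22 and 4.16 in Cd72 (limma, adjusted p = 0.0146, 0.0155 and 0.00193), where 5.48% of symbols passed. Without LAP B-ALL 4 as well, Cd83 joined them at 4.97 (limma, adjusted p = 0.00101), where 13.3% passed. LAP preB-ALL then rested on 2 tumours, and Cd72 (-2.92) and Cd22 (-2.70) were lower there than in Blnk tumours (limma, adjusted p = 0.0142 and 0.0457), with 1.16% of symbols passing. The LAP/Blnk tumours lay above these 2 by 2.93 in Cd72 (limma, adjusted p = 0.0135), with 4.19% passing. Without LAP B-ALL 4 alone, Cd83 of LAP B-ALL passed against Blnk tumours (4.27, adjusted p = 0.0338 in limma, 10.7% of symbols passing) and against LAP/Blnk tumours (4.54, adjusted p = 0.0386 in limma, 11.6% passing). Without LAP preB-ALL 4 alone, Cd72 passed between LAP B-ALL and LAP preB-ALL, at 3.32 (limma, adjusted p = 0.0215, 1.7% of symbols passing).

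Related gene groups were counted in the comparison of LAP B-ALL with LAP/Blnk tumours, where 3.52% of all symbols passed. The list of MHC class II genes and genes that act with them had 4 higher and 0 lower of 12. Among these were H2-DMb2 at 3.75, Cd74, the invariant chain, at 3.67 and H2-DMb1 at 3.10. Other B-cell surface genes had 3 higher and 1 lower of 33, with Cd55 at 2.62, Ly86 at 2.37, Cd52 at 2.19. The 1 lower gene, named after its value was seen, was Ptprcap at -1.54. The B-cell receptor list had 1 call of 16, Malt1 at 1.73, a protease that carries receptor signals to NF-kB, and the BAFF receptor list had Bcl3 at 2.88 and Rela at -0.82. Klf2 (3.36), a regulator of B-cell homing, was the 1 call among 22 B-lineage regulators, and Erg (-4.55) the 1 call among 12 pro-B and pre-B markers. In LAP B-ALL against LAP preB-ALL each list had 0 calls. Against Blnk tumours LAP B-ALL had 1 call each in 3 lists, Malt1 (1.48), Spi1 (0.76) and H2-DMb1 (2.69).

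Markers of several other cell types were also higher or lower in these tumours. The mean ratio of 9 T-cell genes was 1.11, 1.01, 2.14 and -0.11 in LAP B-ALL, against 0.06, -0.32 and -0.61 in LAP/Blnk tumours. The tumours labelled LAP preB-ALL 2 and 4 were at 1.40 and 1.26, and Blnk tumour 5 was at 1.32. None of the 9 passed between LAP B-ALL and LAP/Blnk tumours, and Cd3g differed by 3.40 (limma, adjusted p = 0.127). The mean of 7 erythroid genes was 4.67, 4.68, 5.51 and 1.19 in LAP B-ALL, against -0.51, -0.46 and -0.74 in LAP/Blnk tumours, and 2 of the 7 passed (Alas2 at 6.001 and Hba-a1 at 5.77). It was 5.08 in LAP preB-ALL 4 but -0.72 in LAP preB-ALL 2, although both were high in Ms4a1 and Cd83. Marco (5.58) was the 1 call of 11 genes of monocytes and macrophages, whose mean ratio was 1.17, 1.22, 1.84 and 0.15 in LAP B-ALL, against -0.68, -0.71 and -0.99 in LAP/Blnk tumours. The mean of 12 granulocyte genes was 1.68, 1.67, 1.57 and 2.22 in LAP B-ALL, against 1.0005, -1.02 and -1.39 in LAP/Blnk tumours. None of the 12 passed, S100a9 and S100a8 differing by 4.06 and 3.95 (limma, adjusted p = 0.201 and 0.249), and the highest mean, 2.91, was in Blnk tumour 5, where Cd83 was at 1.95. That tumour also had mean ratios of 1.01 for monocytes and macrophages, 1.10 for dendritic cells and 1.28 for stroma and endothelium. Of 8 NK-cell genes the 1 call was lower in LAP B-ALL, Klrb1c at -3.30 (limma, adjusted p = 0.0197), while the list's median change was 0.35. Stroma and endothelium had 0 calls of 10 and a median change of -0.48, with Col3a1 at -2.04 and Dcn at -1.57. Plasma cells (6 genes), follicular dendritic cells (6) and dendritic cells (7) had 0 calls and median changes of 0.65, 1.03 and 0.65, with Jchain at 1.82 and Prdm1 at 1.68, Cxcl13 at 4.12 and Clu at 2.60, and Batf3 at 0.97 and Xcr1 at 0.75. The part of these cells in the members' ratios was not tested, and with no levels deposited it cannot be said which markers were at 0.

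**Figure D4:**
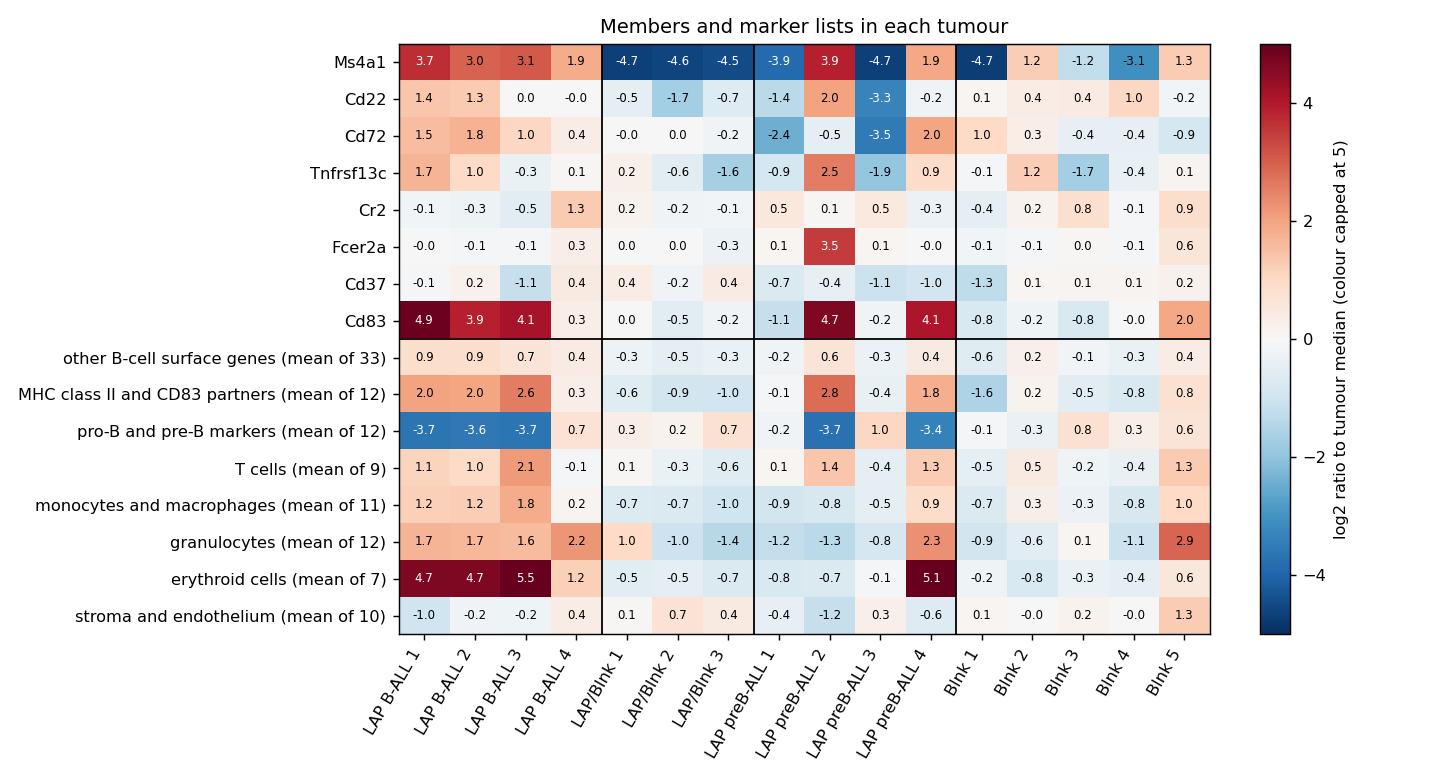
Log2 ratio to the tumour median of the 8 genes (upper rows) and mean log2 ratio of marker lists (lower rows) in each of 16 tumours (columns), red above and blue below the median, with the colour capped at 5. LAP B-ALL 1, 2 and 3 and LAP preB-ALL 4 share high erythroid means between 4.67 and 5.51, while LAP preB-ALL 2 has high Ms4a1 and Cd83 at an erythroid mean of -0.72.

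LAP was added to a Blnk knockout background both in cells and in tumours, and the size of its effect was compared between them. None of the 8 genes differed past the threshold (limma, 0 of 8, with 1 at an unadjusted p under 0.05, where 1.05% of all symbols passed), and the largest difference was -3.31 (SE 1.42) for Ms4a1 (adjusted p = 0.331 in limma). Cd22 differed by -0.59 in cells, which passed, and by -1.31 in tumours, which did not. The difference of these effects was -0.72 (SE 0.36, adjusted p = 0.429 in limma). For each gene, the fit of the differences shared 1 spread between cells and tumours. The median SD of all symbols was 0.08 over the cells and 0.28 over the 16 tumours, so its SEs can be too small for the tumour part. Fitted separately, the effects on Cd22 had an SE of 0.06 in the cells and of 0.85 in the fit of all 16 tumours.

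**Figure D5:**
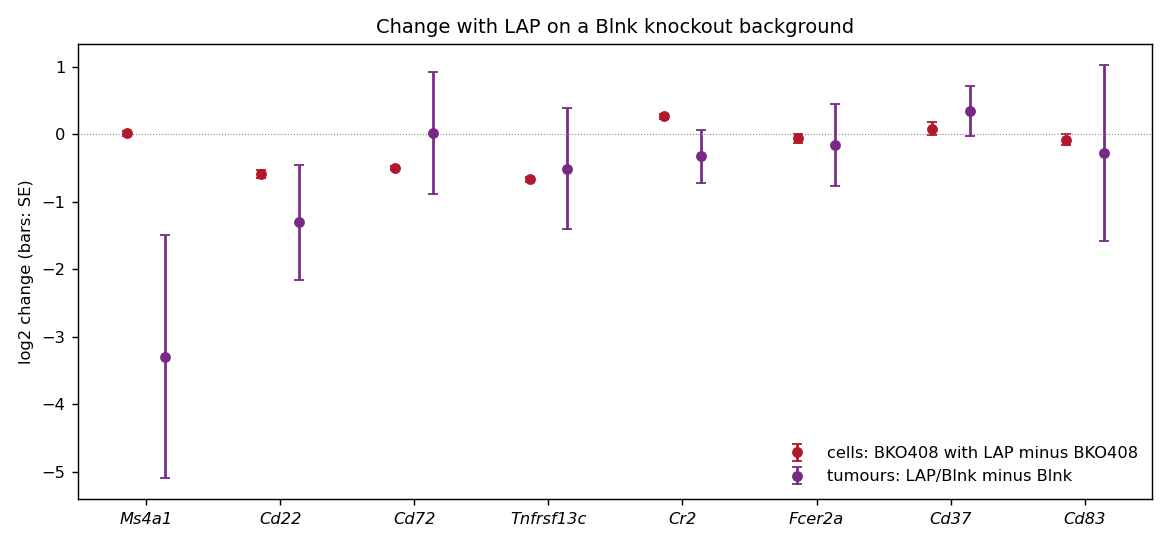
Log2 change (vertical axis, bars 1 SE) with LAP on a Blnk knockout background for each of the 8 genes (horizontal axis), in BKO408 cells (red, LAP minus control) and in tumours (purple, LAP/Blnk minus Blnk). The bars of the cells are short, 0.06 for Cd22, and those of the tumours long, 0.85 for Cd22 and 1.80 for Ms4a1.

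The 8 genes did not vary as 1 block. Across the 16 tumours Ms4a1 had the 10th largest SD of all 17097 symbols (3.48, a 379-fold range) and Cd83 ranked 93 (2.25, 65.8-fold). Cd72, Cd22 and Tnfrsf13c ranked 439, 587 and 666, whereas Cd37 and Cr2 ranked 3077 and 3852, over ranges of 3.27-fold and 3.57-fold. Their SDs of 0.60 and 0.52 were the lowest of the 8 genes but above the median of all symbols, 0.28. The cells gave another order, in which Tnfrsf13c ranked 195, Cd22 255 and Cd72 440, and Ms4a1 ranked 15119. Among 28 pairs the correlation over tumours had a median of 0.391, 11 pairs were above 0.5 and 7 were negative. The closest pairs were Ms4a1 with Cd83 (r = 0.837) and Cd22 with Tnfrsf13c (r = 0.717), and the lowest was Cd72 with Cr2 (r = -0.503). These describe 16 tumours that share groups and host cells, and Cd83 falls into separate ranges, so r for Cd83 rests on the gap between them. Without LAP preB-ALL 2 and 3, the 2 tumours most distant in Cd22, r of Cd22 with Tnfrsf13c was 0.504.

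The symbols most like each gene over the 16 tumours were found by Pearson's r. Ms4a1 was most like Tlr1 (r = 0.956), Il18 (0.941) and Pgap1 (0.938), and these held without the 2 most distant tumours (0.945, 0.943 and 0.925). Cd83 was most like Egr2 (0.972), Lair1 (0.966) and the T-cell gene Cd3g (0.964). Cd72 was most like Atxn7l1 (0.910), Dcxr (0.900) and Dok3 (0.896), the last an adaptor of B-cell receptor signalling that was also lower in LAP cells. For these 3, r was 0.748, 0.807 and 0.832 without the 2 most distant tumours. Cd22 was most like Dennd5b (0.875), Jrk (0.857) and Usp33 (0.850), with r of 0.738, 0.740 and 0.588 without the 2 most distant tumours. Tnfrsf13c was most like Wipf1 (0.913), Gdap2 (0.889) and Vps28 (0.889). Cd37 was most like Slx4ip (0.903), Jmjd1c (0.858) and Hivep2 (0.849). Cr2 was most like Limd2 (0.880), Lyve1 (0.848) and Cd209b (0.847), with r of 0.760, 0.853 and 0.630 without the 2 most distant tumours. The neighbours of Fcer2a, Rab39b (0.991), Eml5 (0.984) and Anxa10 (0.980), rested on LAP preB-ALL 2 and Blnk tumour 5, without which r was 0.525, 0.153 and 0.384.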

How the data were processed

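Total RNA (100 ng per sample, per the labels) was made into biotinylated cRNA for Affymetrix arrays, and the submitters' processing notes name MAS5 alone. The deposited values are log ratios, taken here as log2, since the sources used here do not give the base. They have a median of 0 for each of 45141 probe sets, once over the 8 arrays of cells and once over the 16 tumours. No levels or detection calls were used, and precision is limited by the number of arrays. An annotation of 2016 named the probe sets. Of them, 28898 had 1 symbol, 551 several and 15692 none, and 28689 matched GRCm38.p6. A symbol was represented by its probe set of largest spread around the means of cells and tumours. Groups were compared with limma 3.58.1 (R 4.3.3), two-sided, Benjamini-Hochberg adjusted over all 17097 symbols, with a threshold of 0.05, tested on simulated data. Cells were fitted alone, all 16 tumours together, and the difference of the LAP effects over their 4 groups. The members and 15 further lists (215 genes, 186 measured) were chosen with earlier results of these data known. Named were all members, the 3 symbols most like each over the tumours, and the 3 largest called changes of each list (the 2 largest where none passed). Alternatives were the replicate number as a block, probe-set choice, quantile normalisation, a variance trend, array weights, the more variable symbols, other samples in the fit and leaving out each sample.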

Additional observations from a re-analysis of the deposited data

Results flagged for a closer look

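Within the groups of 4 or 5 samples, 4 of 40 gene and group combinations had 1 sample far from the others, where chance at 5% gives 2. Fcer2a was at 3.50 in the tumour labelled LAP preB-ALL 2, against -0.02 to 0.10 in the other LAP preB-ALL. Fcer2a was also apart in Blnk tumour 5, at 0.62, against -0.14 to 0.04 in the other Blnk tumours. Its second probe set, which was not screened, gave 0.23 there, against -0.21 to 0.13. Cd83 was at 1.95 in Blnk tumour 5, against -0.78 to -0.01 in the others. Cd37 was at -1.27 in Blnk tumour 1, against 0.10 to 0.23 in the others. With its second probe set, not screened either, the values were -1.06, against -0.24 to 0.24.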

How the results depend on the processing

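Under other settings, all changes of the 8 genes in the cells were recomputed for a count. Elsewhere only changes with groups apart, an unadjusted p under 0.05 or the largest size of a comparison were counted. Calls gained by further changes of the 8 genes, such as Cd72 between LAP preB-ALL and Blnk tumours, are outside this count. Genes in other lists were not recomputed. Of the 377 recomputed values, 336 kept direction and side of the threshold, while 12 lost and 18 gained a call. Another 11 turned direction, all of them changes that had not passed. In the cells, Cd22 (-0.70 to -0.55), Cd72 (-0.54 to -0.49), Tnfrsf13c (-0.72 to -0.65) and Cr2 (0.25 to 0.29) each passed in 15 of 16 alternatives, and 0 of the 8 genes passed with all 24 arrays in the fit. Ms4a1 and Cd37 in cells were at -0.0134 and -0.0803 with the mean of probe sets and at -0.0376 and -0.24 with the probe set most variable in cells. Leaving out 1 cell-line sample gave -0.0038 to 0.0367 for Ms4a1, -0.0145 to 0.14 for Cd37, -0.13 to 0.0047 for Cd83 and -0.11 to 0.0039 for Fcer2a. The replicate numbers did not pair the samples, since same-numbered arrays of LAP and control cells correlated at 0.13, 0.26, -0.03 and 0.09, so the replicate block is only an alternative. With the replicate block, which keeps tumours 1 to 3 of both groups, 4 genes passed between LAP B-ALL and LAP/Blnk tumours, where 15.7% of all symbols passed instead of 3.52%, and it changed no other count of calls among the 8 genes. In that comparison 0 passed with the mean of probe sets, 0 after quantile normalisation and 3 with array weights (23.8% of symbols). When 1 tumour was left out 0 to 2 passed (11.6% of symbols where 2 did), and 4 passed without LAP preB-ALL 2 and 4 and LAP B-ALL 4 (18.5%). Between LAP B-ALL and Blnk tumours 2 passed with array weights (21.2% of symbols), 0 to 1 when 1 tumour was left out (10.7% where 1 did) and 3 without those 3 tumours (18.1%). The counts of the 8 genes thus rose where the share over all symbols rose too. Between LAP B-ALL and LAP preB-ALL 0 to 1 passed when 1 tumour was left out (1.7% of symbols where 1 did), 3 without LAP preB-ALL 2 and 4 (5.48%), and 4 without the 3 (13.3%). Between LAP preB-ALL and Blnk tumours 1 passed without LAP preB-ALL 2 and 4 (0.743% of symbols) and 2 without the 3 (1.16%), with Cd83 at -0.70 in both. Between LAP/Blnk tumours and LAP preB-ALL 1 passed in either case (2.51% and 4.19% of symbols). Leaving out the 3 tumours or Blnk tumour 5 was chosen after seeing the data, and leaving out Blnk tumour 5 moved no count of calls. Where the cause of a change between settings is not given by fewer samples or the setting's construction, the cause was not tested. The centring of the deposited values and the small groups limit what can be said: ratios hide whether a gene was detected at all, and with 3 to 5 tumours in a group SEs reached 1.88 log2 units.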
